A study of Mus musculus with 2 samples.

Results

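In the list of 34534 Ebf1-bound regions from mature 3T3-L1 adipocytes, 901 peaks on chromosomes 1 to 19 carry a second value of 6 or more. The second value is the latter of a pair of whole-number columns that the deposited list gives for each peak, and these 901 are 2.70% of the 33352 peaks on those chromosomes. The first column is called the score below. No source used here says what either column measures, or whether the second value comes from the whole cell extract. Peaks were selected on the second value itself, so its level in the 901 is a description and not a finding. They are set beside peaks of the same width with a second value of 0 to 2, of which 10311 have a width found among the 901.

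The study's labels describe 2 libraries from 3T3-L1, a clonal mouse line of fibroblast origin that stores fat after hormonal induction. Both libraries came from cells fixed with 1% formaldehyde on day 10 after induction with the cocktail MDI. The Ebf1 library was made with a commercial antibody against Ebf1, and the other is whole cell extract with no antibody. Values of the whole cell extract were not analysed here, so every result describes 1 library, has no replicate error and carries no test between conditions. Intervals cover counting error only and treat peaks as independent, and the read depth is unknown.

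Ebf1 (early B cell factor 1) is a helix-loop-helix transcription factor that binds DNA as a dimer. It is known for setting up the B cell lineage and for promoting the change of precursor cells into adipocytes. Whole cell extract is sequenced beside such a library because some stretches of the genome yield more fragments than others even without an antibody. Neither sequence nor annotation of mm9 was used here, so regions are given by mm9 coordinates, with no strand, gene or motif.

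The selected peaks were few at each step up from the bound. Of the 901, 419 had a second value of exactly 6, 257 had 7, 108 had 8 and 63 had 9, and 54 had 10 or more. Just outside the bound lay 980 peaks at 5, with a median score of 44 (quartiles 26 and 78) and a median width of 525 bp. Those just inside, at 6, had a median score of 58 (quartiles 36 and 100) and a median width of 550 bp. Peaks at 5 and at 6 therefore overlapped widely in score and width.

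All selected peaks were wide. Their widths ran from 325 to 975 bp with a median of 600 bp, against a median of 300 bp for all peaks on the 19 autosomes. None of the 17420 peaks of 300 bp or less was selected. At 325 bp 0.751% of peaks were selected, at 500 bp 5.30%, at 700 bp 24% and at 975 bp 55.2%, or 16 of 29. The share selected thus rose with width, and shares and medians of the comparison peaks below are given at the selected peaks' widths.

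An upper bound in the list set which widths could be selected at all. In none of the 34534 peaks did the second value reach the width divided by 50, and the highest ratio was 1.93 per 100 bp. The edge was sharp at narrow widths. At 200 bp 344 peaks had a second value of 3 and none had 4, the first value at the limit. Likewise 88 peaks of 225 bp had 4 and none had 5, 31 peaks of 300 bp had 5 and none had 6, and 14 peaks of 325 bp had 6 and none had 7. A peak of 300 bp or less could not hold a 6 under this limit. The largest whole number below the limit was reached at 15 of the 32 widths, which were 725 bp and every width up to 550 bp but 425 bp. Of the selected peaks 53, or 5.88%, sat at that largest number, against 612, or 1.83%, of all autosomal peaks. From 325 bp up that number is 6 or more, so any peak there that reaches it is selected by construction. The 53 are therefore a description and not a finding. At 425 bp the number is 8, which no peak of that width had. The median selected peak stood at 57.1% of the limit. No source used here names such a limit, and what was left out above it is not known.

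**Figure D1:**
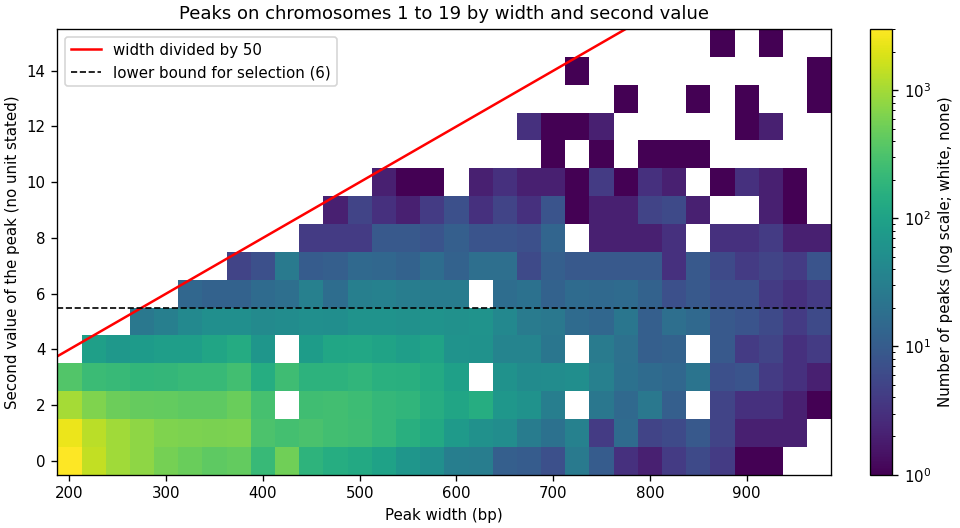
Number of peaks on chromosomes 1 to 19 at each peak width (bp) and second value, on a log colour scale, with white where there is none. The centres of all filled cells lie below the red line of width divided by 50, the selected peaks lie above the dashed line, and single empty cells stand at 425, 625, 725 and 850 bp.

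Gaps at a few widths also affected the selection. At 425 bp no peak had a second value of 2, 4 or 8, while 282 peaks of 400 bp and 254 peaks of 450 bp had a 2. The same 3 values were absent at 725 and 850 bp. At 425 bp 536 peaks had a second value of 0, against 217 at 400 bp and 178 at 450 bp. At 625 bp 3 and 6 were absent, although 28 peaks of 600 bp and 17 of 650 bp had a 6. Dividing a whole number by the width, multiplying back and dropping decimals in 64-bit arithmetic returns 1 less than the starting number for the absent values. At 425, 725 and 850 bp it does so for a 1 as well, which would then be listed as 0. The values that this arithmetic cannot return were found in 0 of 2001 peaks at the 5 widths concerned, where the shares at the adjoining widths predict 532. For the score the same arithmetic gives gaps at 30 widths, and 0 of 29608 peaks held a value in them, where 430 were predicted. How the columns were computed is not given in the sources used here.

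For the selected peaks the consequence falls on 1 width. A 6 cannot appear at 625 bp, where 31 peaks were selected, against 58 at 600 bp and 51 at 650 bp. The 62 peaks of 625 bp listed at 5 may include some that would otherwise read 6. The comparison peaks of that width are affected too, as a 3 cannot appear there. Of them 142 were listed at 2, against 109 at 600 bp and 69 at 650 bp, and some may otherwise read 3. At 425, 725 and 850 bp an 8 would read 7 and stays inside the bound.

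At equal width the selected peaks scored a little higher than the comparison peaks. The selected peaks had scores from 11 to 426, with a median of 68 (95% binomial interval 63 to 72) and quartiles of 41 and 118, against a median of 13 for all autosomal peaks. At the same widths, peaks with a second value of 0 to 2 had a median score of 62. The ratio of 1.10 is small beside the spread of scores, and the score comes from the same library and list, so it was not tested. Of the 27 widths holding selected peaks, 25 had a higher median score in the selected peaks, 1 was equal and 1, at 700 bp, was lower with 92.5 against 94. The 25 include ratios of only 1.01 at 575, 625 and 950 bp. They also include 975 bp, where there was 1 comparison peak, and 950 bp, where there were 4. Over the 21 widths with at least 20 comparison peaks the ratio ran from 0.984 to 1.46. It was highest at 325 bp, where 14 selected peaks had a median score of 19 and the comparison peaks 13. With fewer comparison peaks it reached 1.62 at 900 bp, from 154 in the selected peaks and 95 in 6 comparison peaks.

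**Figure D2:**
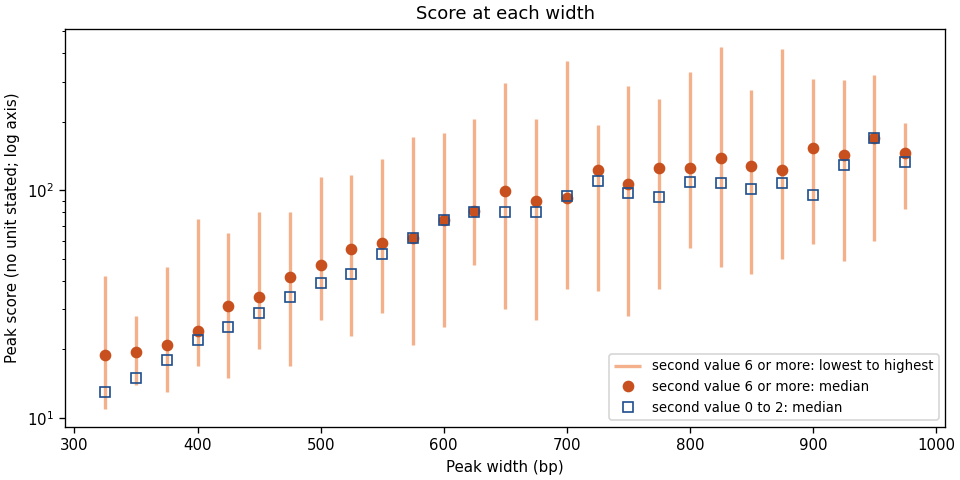
Peak score on a log axis against peak width (bp) for peaks with a second value of 6 or more (filled circles, median; bars, lowest to highest) and of 0 to 2 (open squares, median). Both medians rise together with width, the circles lie at or above the squares at all widths but 700 bp, and the bars reach well past both.

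Strong peaks, those with a score of 55 or more, made up 559 of the 901 selected peaks, or 62.0% (exact 95% interval 58.8 to 65.2). Among all autosomal peaks the share was 10.4%, and at the selected peaks' widths the comparison peaks had 56.0%. Of the 901, 287 scored 100 or more, or 31.9% (28.8 to 35.0), against 3.6% of all autosomal peaks and 26.1% at the same widths. Most of the distance from the autosomal share is therefore found in comparison peaks of equal width too. Within fixed width ranges the median score was higher in the highest class than in the lowest. At 725 to 975 bp it was 104.5 for second values of 0 to 2, 117 for 3 to 5, 125 for 6 to 7 and 133 for 8 or more. The median widths of these classes were 775, 787.5, 800 and 825 bp, so width was not fully equal. At 600 to 700 bp the median score was 78, 77, 80 and 91 over the same classes, with median widths of 625, 650, 650 and 650 bp. At 500 to 575 bp it was 46, 49, 56 and 56, with median widths of 525, 525, 525 and 550 bp. The middle ranges overlapped widely.

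Scores were several times the second value in most selected peaks, but not in all. The score divided by the second value had a median of 9.83, quartiles of 6.13 and 16.5 and a range of 1.83 to 69.8. It was under 5 in 147 peaks and under 3 in 23. A split by score favours unlike ratios by itself. The 342 selected peaks with a score under 55 had a median ratio of 5.32, a median width of 475 bp and a mean second value of 6.64. The 559 strong ones had a median ratio of 14.2, a median width of 675 bp and a mean second value of 7.28.

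The 10 highest second values were found on 8 chromosomes. The peak on chromosome 4 from 97770526 to 97771450 had a second value of 15 and a score of 240. Its equal in second value, on chromosome 3 from 66012726 to 66013600, scored only 84, which was 0.781 of the median of comparison peaks of its width. A second value of 14 was listed on chromosome 17 from 53617751 to 53618725 with a score of 170, and on chromosome 5 from 32441851 to 32442575 with a score of 76. This last peak was 725 bp wide, so 14 was the largest number under the limit, and its score was 0.691 of the comparison median. These 4 peaks show that the highest second values occurred at high and at moderate scores alike.

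A second value of 13 was listed for 4 peaks, all with a higher score than the comparison median of their width. They were on chromosome 16 from 37684576 to 37685475 with a score of 231, on chromosome 6 from 114807926 to 114808775 with 212, on chromosome 6 from 29863976 to 29864950 with 180, and on chromosome 8 from 10927026 to 10927800 with 139. The list of 10 closed with 2 of the 10 peaks at 12, chosen by score. On chromosome 15 the region from 10819801 to 10820725 scored 304 and had no other peak within 12500 bp, and on chromosome 4 the region from 43741326 to 43742000 scored 165 with its nearest peak centre 625 bp away. Of the 901 selected peaks 54 had a second value of 10 or more. Chromosome 6 held 12 of them among its 122 selected peaks, and chromosome 8 held 8 among 105. Chromosomes 9, 10, 12 and 14 held none, but had only 25, 28, 23 and 19 selected peaks. Such small counts give no ranking of chromosomes.

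The strongest selected peaks outside those 10 were picked by score, which by itself favours a high ratio of score to second value. The region on chromosome 2 from 118355026 to 118355850 scored 426 with a second value of 9, a ratio of 47.3. On chromosome 6 from 87051201 to 87052075 the score was 419 and the second value 6, and the ratio of 69.8 was the highest of the 901. A peak on chromosome 8 from 19707076 to 19707775 scored 370 with a second value of 11. The next were on chromosome 6 from 29764401 to 29765200, with a score of 332 and a second value of 9, and on chromosome 2 from 49455351 to 49456300, with 321 and 7. All 5 scored at least 1.90 times the comparison median of their width.

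The weakest selected peaks were picked by score too, which favours a low ratio. On chromosome 8 the region from 86773626 to 86773950 scored 11 with a second value of 6, a ratio of 1.83. The regions on chromosome 2 from 131241976 to 131242300 and on chromosome 6 from 5445976 to 5446350 scored 13, and those on chromosome 2 from 177137876 to 177138225 and on chromosome 3 from 108184951 to 108185275 scored 14, each with a second value of 6. On chromosomes 11 and 17 further regions share that score of 14. All 5 were 325 to 375 bp wide, and 4 of them held the largest second value their width allows. In all, 27 selected peaks scored under 20, none of them wider than 475 bp.

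Selected peaks were spread unequally over the chromosomes. Chromosome 6 held 122 of its 2716 peaks, or 4.49% (exact 95% interval 3.74 to 5.34). From the widths of its peaks, taking at each width the share selected over all autosomes, 70.0 would be selected, a ratio of 1.74 (1.45 to 2.07). Chromosome 8 followed with 105 selected against 68.3 by width, a ratio of 1.54 (1.26 to 1.85), then chromosome 16 with 53 against 37.6, or 1.41 (1.06 to 1.83), and chromosome 5 with 83 against 59.0, also 1.41 (1.12 to 1.74). Chromosome 19 held 45 against 33.8, a ratio of 1.33, and its interval of 0.975 to 1.77 includes 1. Chromosome 2 held 104 against 86.9, a ratio of 1.20, and its interval of 0.980 to 1.45 includes 1. That interval lay above 1 at a bound of 5, with a ratio of 1.25 (1.09 to 1.42). Leaving out the widths that have gaps also put it above 1, at 1.26 (1.01 to 1.55). Once every 1 Mb stretch holding at least 50 peaks was dropped, the chromosome 2 ratio fell to 1.06 (0.839 to 1.32). Dropping only the 2 windows richest in selected peaks gave 1.13 (0.912 to 1.37), and both of these intervals include 1. Chromosomes 2, 5, 6 and 8 had the most selected peaks. Together they held 45.9% of the selected peaks, 33.8% of all autosomal peaks and 31.5% of the number by width. Chromosomes 16 and 19, outside this group, had higher ratios than chromosome 2.

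At the low end, chromosome 7 had 22 selected peaks of 1534 against 45.9 by width, a ratio of 0.479 (0.301 to 0.723). Chromosome 9 had 25 at a ratio of 0.575 (0.373 to 0.846), chromosome 4 had 31 at 0.595 (0.405 to 0.842) and chromosome 18 had 15 at 0.613 (0.344 to 1.01). Intervals lay wholly above 1 on 4 of the 19 autosomes and wholly below 1 on 6. The excess on chromosome 16 depended on how peaks were picked. When they were picked by second value per base instead (0.015 or more), the ratio there was 0.973 (0.683 to 1.34), while chromosomes 6, 8 and 2 were at 1.62, 1.49 and 1.36. At a bound of 5 chromosome 16 was at 1.23, with an interval of 0.998 to 1.49 that also includes 1. Picked per base, chromosome 7 was at 0.761, and its interval of 0.494 to 1.12 includes 1.

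Peaks that could not have been selected followed a similar order. In peaks of 200 to 300 bp, all below the reach of the bound, the mean second value was 0.995 over the autosomes. Taken against autosomal peaks of equal width, the summed second value of these narrow peaks was 1.16 times on chromosome 6, 1.15 on chromosome 19 and 1.10 on chromosomes 8 and 2. It was lowest on chromosome 14, at 0.768, with 0.857 on chromosome 9 and 0.892 on chromosome 7. Across the 19 chromosomes this ratio and the ratio of selected peaks had a Spearman's rho of 0.902 and a Pearson's r of 0.884, as a description of chromosomes that share 1 library and 1 peak list. Score at equal width varied less, from 0.942 on chromosome 14 to 1.07 on chromosome 6, with a rho of 0.612 to the same ratio.

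**Figure D3:**
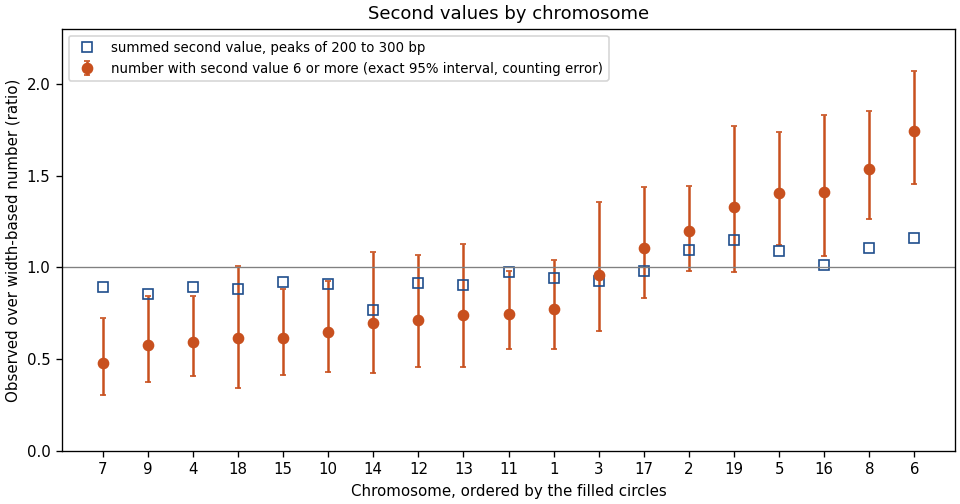
For each autosome, the number of selected peaks over the number given by its peak widths (filled circles, with exact 95% intervals for counting error) and the summed second value of peaks of 200 to 300 bp over the sum given by their widths (open squares). Chromosomes are ordered by the circles, from 0.479 on chromosome 7 to 1.74 on chromosome 6, and the squares run in the same direction over a narrower range.

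Second values also varied along chromosomes. Among 165 segments of 10 Mb with at least 100 peaks, the segment from 10 to 20 Mb on chromosome 8 held 25 selected peaks of 234, against 7.02 by width. On chromosome 16 the first 10 Mb held 9 of 123 against 2.36. From 170 to 180 Mb on chromosome 2 there were 20 of 574 against 6.18, and from 110 to 120 Mb on chromosome 6 19 of 225 against 7.05. Narrow peaks of these 4 segments had second values 1.70, 1.13, 1.52 and 1.29 times those of equal width over all autosomes. In all, 13 segments held at least 2 times the number by width, and their narrow peaks ranged from 0.909 to 1.70 times. This ratio was above 1 in 8 of the 13 and below 1 in 5, among them 50 to 60 Mb on chromosome 5, where 4 of 130 peaks were selected against 1.37 by width and narrow peaks were at 0.997. In contrast, 8 segments held none among 981 peaks, where 21.2 were given by width, 1.21 to 4.42 in each. These segments were picked for holding none, so the summed 21.2 is no measure of a depletion. They included chromosome 15 from 20 to 40 Mb, chromosome 12 from 30 to 40 and 100 to 110 Mb and chromosome 7 from 50 to 60 Mb, and also chromosome 6 from 40 to 50 Mb, where 1.70 were given by width.

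Of 2325 windows of 1 Mb with a peak, 552 held a selected peak and 358 of these held just 1. The 4 windows with the most selected peaks lay on chromosomes 8, 2 and 6. First came 19 to 20 Mb on chromosome 8, with 11 of 51 peaks selected against 1.08 by width. Next were 177 to 178 Mb on chromosome 2 with 10 of 208 against 1.65, 115 to 116 Mb on chromosome 6 with 8 of 59 against 2.89, and 71 to 72 Mb on chromosome 8 with 7 of 80 against 2.89. On chromosome 6 113 to 114 Mb had 6 of 33 against 1.35, and 8 more windows had 6. In the 13 windows with 6 or more the remaining peaks had second values from 1.13 to 2.51 times those of equal width. With the windows that had 5 selected peaks, 18 of 19 were above 1, and the lowest was at 0.933 on chromosome 16.

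**Figure D4:**
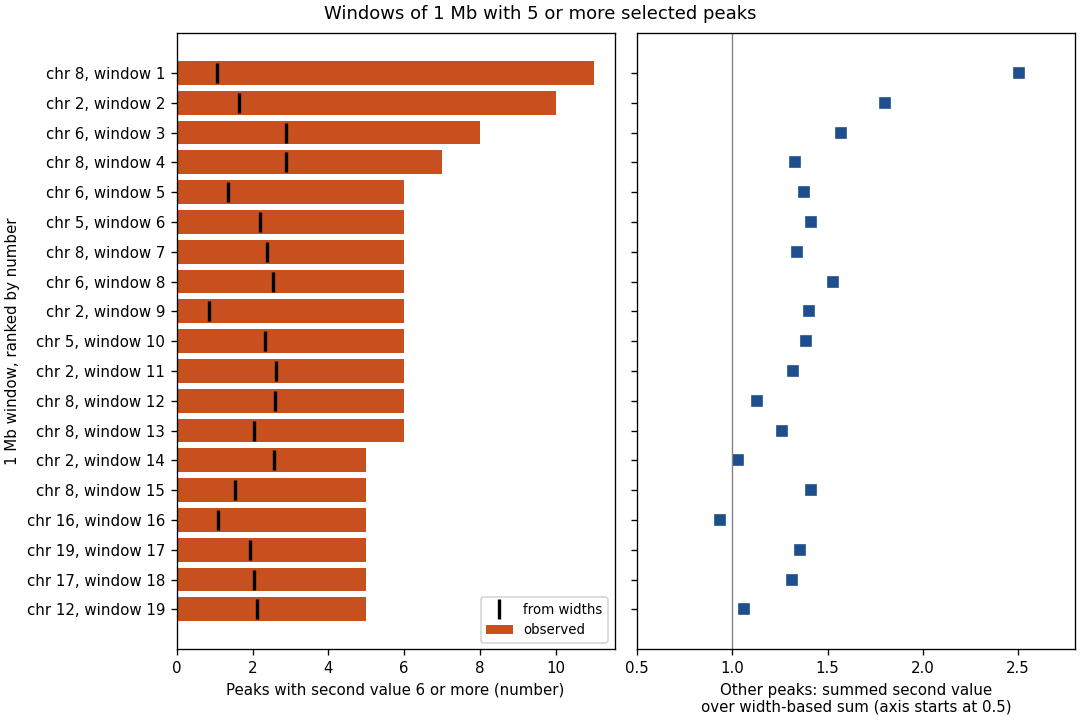
The 19 windows of 1 Mb with 5 or more selected peaks, named by chromosome and rank. Left, their number (bars) and the number given by peak widths (ticks), and right, the summed second value of the other peaks over the sum given by widths, which is 2.51 in the first window, above 1 in 18 of the 19 and lowest at 0.933 on chromosome 16.

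The first window combined high second values with very unequal scores. Of its 51 peaks 11 were selected, 16 had a second value of 4 or 5 and 4 had 0, so 7.84% were at 0 against 28.8% of all autosomal peaks. Its selected peaks ran from 22 to 370 in score. The strongest, at 19707076 to 19707775, scored 370 with a second value of 11, and no other peak of the window scored above 78. At 19683151 to 19683650 the score was 70 and the second value 9. From 19788576 to 19800750 a cluster of 5 peaks held 3 selected ones, with scores of 53, 43 and 78 and second values of 8, 6 and 7.

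The window on chromosome 2 held weak peaks only. None of its 208 peaks reached a score of 55, and its 10 selected peaks scored 14 to 45. Of these 10, 6 lay between 177042651 and 177064800, where the second values were 7, 9, 6, 7, 8 and 10 in order along the chromosome. The cluster they belong to, from 176889926 to 177096100, had 7 selected peaks among 70, the most of any cluster, against 0.628 by width. Clusters join peaks whose centres lie within 12500 bp of the next.

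Several clusters tied for the following place with 4 selected peaks. The smallest spans were 37.6 kb on chromosome 2 from 165674526 to 165712125, with 11 peaks, and 42.8 kb on chromosome 2 from 83791101 to 83833850, with 16 peaks. In the latter the selected peaks scored 28 to 38 with second values of 7 or 8, and no peak scored above 38. Its other peaks had a median second value of 3. At 71344876 to 71430075 on chromosome 8, by contrast, 4 of 37 peaks were selected in a cluster whose highest score was 253. Over the whole list 63 clusters had 2 or more selected peaks, and 17 had 3 or more.

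Selected peaks had close neighbours more often than comparison peaks of the same width. Another peak centre lay within 12500 bp of 658 of the 901, or 73.0% (exact 95% interval 70.0 to 75.9), against 59.8% of comparison peaks at the same widths and 56.1% of all autosomal peaks. The median distance to the nearest peak centre was 4500 bp for selected peaks and 8362.5 bp for the comparison peaks. Another selected peak lay within 12500 bp of 111, or 12.3% (10.2 to 14.6), while 4.47% of the comparison peaks and 4.73% of all autosomal peaks had a selected peak that near. The selection rule kept most second values near its bound, so their likeness in selected peaks with and without a neighbour is no finding. The 243 with none had a mean of 7.02 and a median score of 63, and the 658 with at least 1 had a mean of 7.04 and a median score of 69.

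Windows of 50 or more peaks held 114 of the selected peaks, or 12.7% (10.6 to 15), against 3.93% of the comparison peaks at the same widths and 7.01% of all autosomal peaks. The excess of neighbours was found outside such windows too, at 70.5% against 58.8%.

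Peaks lying near the selected ones had raised second values themselves. Within 12500 bp of a selected peak were 1466 peaks that were not selected, with a mean second value of 1.86 where their widths gave 1.45, a ratio of 1.29 (Poisson 95% interval 1.24 to 1.34). The Poisson intervals here treat summed second values as independent counts, which is not known to hold, so they measure no known spread. The 749 of them that were 200 to 300 bp wide, and so could not be selected, had a mean of 1.39 where 1.00 was given by width, a ratio of 1.38 (1.30 to 1.47). For the 717 wider ones, which had to stay under 6 to be counted here, it was 1.24 (1.18 to 1.30).

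The excess faded with distance beyond 25 kb. Counted over all pairs of a selected and a narrow peak, it was 1.42 up to 5000 bp, 1.48 from 5000 to 12500 bp and 1.51 from 12500 bp to 25 kb. It was 1.35 from 100 to 250 kb, 1.13 from 500 kb to 1 Mb and 1.03 from 20 to 40 Mb. Narrow peaks around the comparison peaks were at 1.13, 1.08 and 1.09 over the first 3 distances. Without windows of 50 or more peaks the values around selected peaks were 1.32, 1.28 and 1.31 over those distances, 1.17 from 100 to 250 kb and 1.00 from 10 Mb on. The dense windows thus carried part of the excess but not all of it.

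**Figure D5:**
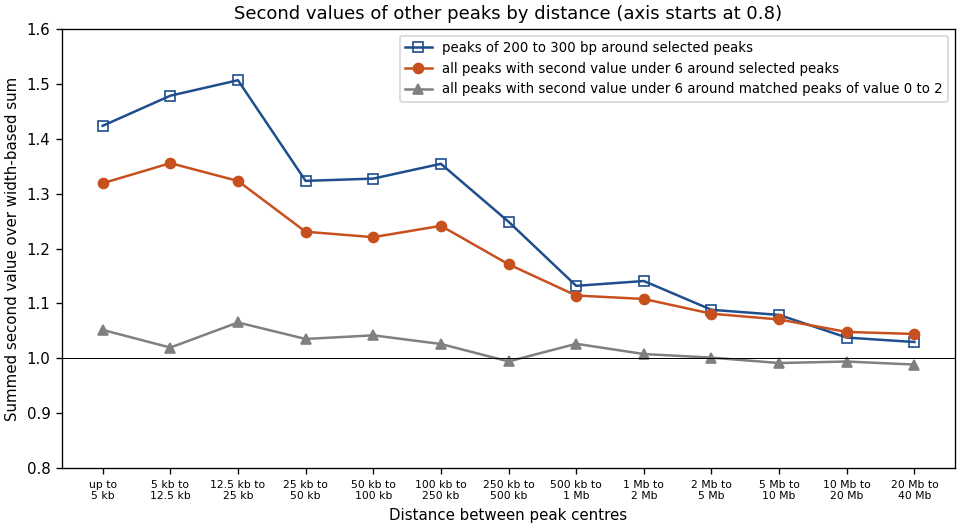
Summed second value of other peaks over the sum given by their widths, by distance between peak centres, around selected peaks (squares, peaks of 200 to 300 bp; circles, all peaks with a second value under 6) and around width-matched peaks with a second value of 0 to 2 (triangles, peaks under 6). The squares lie between 1.42 and 1.51 within 25 kb and fall to 1.03 at 20 to 40 Mb, and the triangles stay between 0.989 and 1.07.

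The share near the chromosome's ends depended on the distance counted. Of the selected peaks 104, or 11.5% (9.53 to 13.8), lay within 5 Mb of the first or last peak of their chromosome, against 8.64% of comparison peaks of the same width and 10.1% of all autosomal peaks. Within 2 Mb of those ends the shares were 4.0% and 3.55%, a difference inside the counting error of the selected share. Among peaks picked per base the share within 5 Mb was 14.8% against 10.0%. At a bound of 7 the difference was inside the counting error of the selected share.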

How the data were processed

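The submitters' processing notes name the build mm9 and SAMtools. How the aligner, peak caller, threshold and whole cell extract were used is not given in the sources used here. Without a header, the deposited list gives 1-based positions in steps of 25 bp, a score and a second score (here the second value). Neither is known to be a read count. Width is end minus start plus 1.

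Comparison peaks were weighted so that their widths follow those of the selected peaks. Numbers by width apply each width's autosomal mean to the peaks of a region. For neighbouring peaks the mean is over peaks with a second value under 6. Shares carry exact Clopper-Pearson and sums exact Poisson 95% intervals, the latter as if second values were independent counts. Intervals of differences and ratios take the comparison share or the number by width as fixed, so its own error is left out. The width-matched ratio of medians and the ratio for neighbouring peaks were tested on simulated data, the latter with width means from other chromosomes only. The other calculations were not tested in this way. The work ran in Python 3.11.15 with scipy 1.17.1, numpy 2.4.6, matplotlib 3.10.9 and pandas 2.3.3.

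The selection and regions named were chosen with earlier results of these data known. Named regions are the 10 highest second values, the 5 highest and 5 lowest scores, the 5 windows and the 3 clusters with the most selected peaks (ties by fewer peaks, then position), and others added after seeing their values. Sequence and genes at the peaks were planned and not analysed, as no mm9 genome was used here.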

Additional observations from a re-analysis of the deposited data

How the results depend on the processing

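Of 97 alternative values, 56 were planned and 41 added after seeing the data. Of the 97, 86 stayed within the 95% interval of the reported value, 10 moved beyond it and 1 changed direction. For numbers of peaks, within 1.5 times was used instead. For summed second values the Poisson interval was used, which measures no known spread. A bound of 5 selects 1881 peaks and a bound of 7 selects 482, by construction, and the ratio for unselected neighbours, 1.29 as reported, was 1.24 and 1.34 there. The excess of selected over comparison peaks with a neighbour, 13.3 percentage points as reported, was 19.5 against comparison peaks at 0 and 10.0 at a distance of 25 kb. The excess at chromosome ends went from 2.90 to 0.447 percentage points within 2 Mb, and was 4.76 per base. Its interval of 2.33 to 7.47 takes the comparison share as fixed. The excess of strong peaks, 6.0 as reported, was 3.40 at a bound of 5. Picking peaks by second value per base, which admits narrow peaks, gave an excess of strong peaks of 2.09, an excess with neighbours of 18.2, a ratio of 0.761 (0.494 to 1.12) on chromosome 7 and, on chromosome 16, 0.973 where 1.41 was reported. The cause was not tested. Leaving out the widths with gaps, or the leading windows on chromosomes 8 and 2, kept all values within their intervals. Sequence among strong peaks was not run. No paired analysis was possible because 1 library had values, and no replicate could be left out.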

Other observations

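Outside chromosomes 1 to 19 a second value of 6 or more was rare. Chromosome X had 3 such peaks among 804, where 12.1 would be given by autosomal shares at the same widths, and the summed second value of its peaks was 0.734 of that of autosomal peaks of equal width. The 3 lay from 4274901 to 4275425 with a score of 19 and a second value of 10, from 69575676 to 69576250 with 72 and 7, and from 153766251 to 153766925 with 93 and 6. The first of them had a score only 1.9 times its second value. All 33 peaks on chromosome Y and all 345 on unplaced sequences had a second value of 0. By width, 0.750 and 12.1 of them would have 6 or more. The cause was not tested.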
